A study of Mus musculus with 24 samples.

Results

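The NF-κB system was followed through 10 genes in mice given β-nicotinamide mononucleotide (β-NMN), a precursor of NAD+, or vehicle during peritonitis. The genes were taken by symbol, and each was found once among the 54658 symbols of both count tables: the subunit genes Nfkb1, Nfkb2, Rel, Rela and Relb, and the inhibitor and feedback genes Nfkbia, Nfkbie, Nfkbiz, Bcl3 and Tnfaip3. All 10 passed the low-count filter in each of the 3 tissues. All animals were C57BL/6 male mice of 7 to 12 weeks. In the thioglycollate (TGC) model, sterile peritonitis was started with 1 mL of TGC, the treated mice were injected with 185 mg/kg of β-NMN per day for 3 days and the vehicle mice with 0.9% NaCl, and the peritoneal cells of 6 vehicle and 6 β-NMN mice were stimulated with E. coli for 6 h before RNA was taken, so both groups had met bacteria and no unstimulated cells were compared. In the cecal ligation and puncture (CLP) model of sepsis, β-NMN (185 mg/kg) or vehicle was given once, right after surgery. At 24 h after that injection heart and lung were both taken from each of 3 vehicle and 3 β-NMN mice, and all of these animals had undergone CLP. The source labels of the CLP samples name TGC peritonitis, whereas their titles and tissues name CLP. One β-NMN heart whose number was repeated in the labels was taken as replicate 2, after the mouse whose lung carries that number.

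NF-κB is a family of transcription factors that work as pairs of subunits. In resting cells the pairs are held in the cytoplasm by IκB proteins. When Toll-like, interleukin-1 or TNF receptors are engaged, a kinase complex marks IκB for degradation, the pairs enter the nucleus, and they switch on cytokines, chemokines and, among their first targets, the genes of their own inhibitors and of several subunits. In macrophages this loop sets the size and the length of the response to bacteria, and in heart and lung it is engaged during sepsis by endothelial, stromal and recruited immune cells.

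Promoters of members are shown because such self-control can act through κB sites, the DNA words that NF-κB binds. Windows of 300 bases, 250 before to 50 after the transcription start, were taken from RefSeq on GRCm38.p6 for the 7 members held in that table (Nfkb2, Rel, Rela, Nfkbia, Nfkbie, Bcl3 and Tnfaip3). The degenerate 10-base κB consensus was searched on both strands. It matched in 5 of these 7 genes, and in 6.55% of the 27025 genes of the table. No match was found in the windows of Rela and Nfkbie, which says only that these letters are not there. Positions are counted from the start, and capitals mark the matches. For Rel, Nfkbia and Tnfaip3 the 100 bases before the start are given, and for Nfkb2 and Bcl3 the 30 bases around each site. In Rel a pair of overlapping matches forms one run.
Nfkbia (minus strand, chr12:55492648-55492747): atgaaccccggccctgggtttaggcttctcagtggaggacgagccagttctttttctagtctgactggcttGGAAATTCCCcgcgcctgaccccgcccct
Tnfaip3 (minus strand, chr10:19015411-19015510): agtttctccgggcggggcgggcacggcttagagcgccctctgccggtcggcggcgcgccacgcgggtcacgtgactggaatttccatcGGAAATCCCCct
Rel (minus strand, chr11:23770970-23771069): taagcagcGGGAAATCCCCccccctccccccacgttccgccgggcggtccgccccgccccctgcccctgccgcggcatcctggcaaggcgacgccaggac
Nfkb2, distal site (plus strand, chr19:46304688-46304717): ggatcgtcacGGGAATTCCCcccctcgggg
Nfkb2, proximal site (plus strand, chr19:46304716-46304745): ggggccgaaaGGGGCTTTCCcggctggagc
Bcl3 (minus strand, chr7:19822734-19822763): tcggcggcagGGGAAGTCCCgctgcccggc
The matches of Nfkbia and Tnfaip3 began 29 and 12 bases before the start, those of Rel 92 and 91 bases before it, those of Nfkb2 39 and 11 bases before it, and that of Bcl3 lay just after it, from base 3 to 12. A further pair of Nfkb2 windows, for later starts, overlapped each other and shared 1 match, and the later Tnfaip3 window held none. A match is a string of letters and not a measured binding site.

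Libraries held 31.1 M to 112.5 M counts in peritoneal cells, 27.3 M to 68.5 M in hearts and 8.9 M to 28.4 M in lungs. In peritoneal cells, vehicle 4 to 6 and β-NMN 1 and 2 were sequenced to 90.6 M counts or more and the other 7 libraries to 53.3 M or less. The heart and the lung of vehicle replicate 2, organs of the same mouse, stood apart: the SD of their log2 differences from the other libraries was 0.990 in heart, where the others lay between 0.386 and 0.577, and 1.571 in lung, where the others lay between 0.450 and 0.602. The lung library was also the shallowest. The members' organ values are therefore also given without this mouse, by their range where a gene is not named. The hearts carried cardiomyocyte markers (30476.3 to 56904.9 CPM summed over 6 genes) and the lungs lung epithelium markers (55053.6 to 99447.7 CPM over 6 genes). Levels are CPM, read counts scaled to library size with TMM factors, and fold changes are β-NMN over vehicle.

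In E. coli-stimulated peritoneal cells, all 10 members were lower after β-NMN. Log2 fold changes ran from -1.09 to -0.55, with a median of -0.75, whereas the median over the 14985 genes tested was -0.02. By edgeR's quasi-likelihood test with Benjamini-Hochberg adjustment over all of these genes, 10 of 10 members fell at an adjusted p below 0.05, while 27.9% of all tested genes were called lower. Fold changes below 0 were found in 51.5% of all genes and in 10 of 10 members. In 7 members every β-NMN library lay below every vehicle library, which held for 14.0% of all genes, and the exceptions were Rel, Rela and Tnfaip3.

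**Figure D1:**
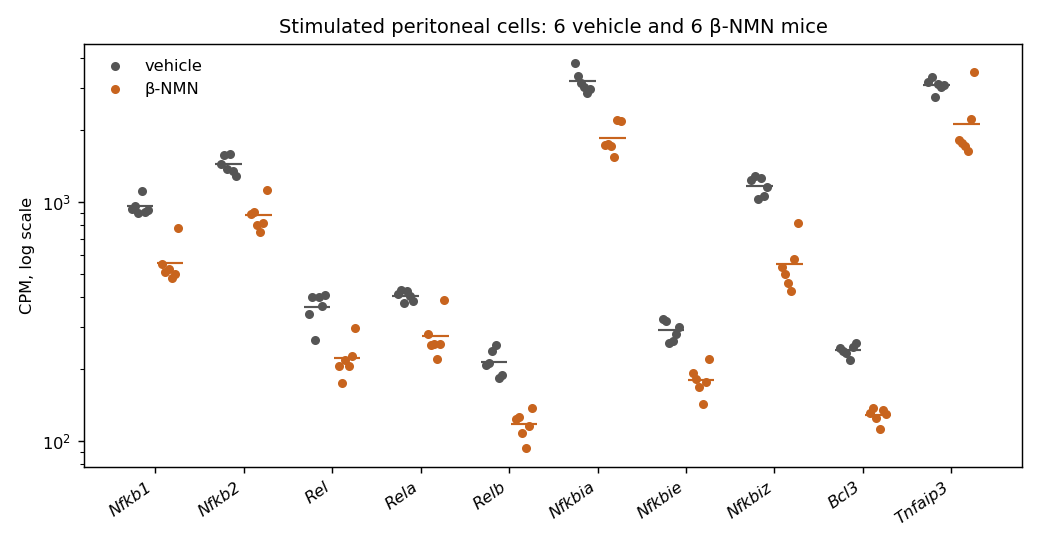
CPM of each member (log axis) in every library of stimulated peritoneal cells, from 6 vehicle (grey) and 6 β-NMN (orange) mice; bars are group means. The groups are separate for 7 members, and 1 β-NMN library lies within or above the vehicle points for Rela, Rel and Tnfaip3.

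Among the subunits, Rela encodes the main activating partner of the classical pathway and Nfkb1 encodes the precursor of its usual DNA-binding partner. Nfkb1 ranged from 902.5 to 1113.6 CPM in vehicle cells (median 931.5) and from 478.8 to 782.2 CPM in β-NMN cells (median 515.1). The groups did not overlap, and the fold change was -0.78 ± 0.12 (log2, SE, n = 6 per group, edgeR adjusted p = 7.42e-05). Rela ranged from 378.2 to 427.4 CPM (median 407.9) in vehicle cells and from 219.2 to 390.2 CPM (median 254.4) in β-NMN cells, a change of -0.56 ± 0.12 (edgeR adjusted p = 0.00113). A single β-NMN library, replicate 6, reached the vehicle range of Rela. Rel, the subunit c-Rel of lymphoid and myeloid cells, ranged from 264.3 to 407.2 CPM in vehicle cells (median 383.4) and from 174.6 to 297.6 CPM in β-NMN cells (median 211.7). Its change was -0.71 ± 0.13 (edgeR adjusted p = 0.000401), with vehicle replicate 3 lowest among the vehicle libraries and β-NMN replicate 6 above it.

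Nfkb2 and Relb encode the partners of the alternative, slower pathway. Nfkb2 ranged from 1286.7 to 1598.0 CPM in vehicle cells (median 1414.7) and from 745.7 to 1124.7 CPM in β-NMN cells (median 853.8). Relb ranged from 183.4 to 252.5 CPM (median 209.6) and from 93.3 to 137.0 CPM (median 119.3), respectively. Neither overlapped between groups, and the changes were -0.71 ± 0.11 for Nfkb2 and -0.87 ± 0.11 for Relb (edgeR adjusted p = 7.00e-05 and 1.26e-05). The exons of Nfkb2 share 11.6% of their bases with AC114539.1 and 6.52% with Psd on the other strand, and those of Bcl3 share 6.51% with Gm16175. Since the sources used here do not give the strand setting, reads of these overlapping stretches could not be assigned.

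Of the inhibitors, Nfkbia encodes IκBα, the fast-acting brake that is rebuilt within each round of activation. Nfkbia ranged from 2855.5 to 3821.0 CPM in vehicle cells (median 3099.2) and from 1541.6 to 2213.1 CPM in β-NMN cells (median 1744.7). The groups were separate, with a change of -0.79 ± 0.11 (edgeR adjusted p = 4.81e-05). Nfkbie, which encodes IκBε, ranged from 256.6 to 322.8 CPM (median 289.2) in vehicle cells and from 142.8 to 219.9 CPM (median 179.0) in β-NMN cells, a change of -0.69 ± 0.10 (edgeR adjusted p = 7.32e-05) again without overlap.

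Nfkbiz and Bcl3 encode nuclear IκB relatives, which sit on DNA-bound Nfkb1 or Nfkb2 products and shape secondary responses. Nfkbiz fell most of the 10 by point estimate. It ranged from 1033.2 to 1285.3 CPM in vehicle cells (median 1196.9) and from 425.8 to 816.9 CPM in β-NMN cells (median 516.0), a change of -1.09 ± 0.14 (edgeR adjusted p = 1.96e-05). Bcl3 had the smallest SE of the 10 fold changes. Its vehicle libraries lay between 217.9 and 257.2 CPM (median 241.6) and its β-NMN libraries between 111.9 and 137.0 CPM (median 129.7), with a change of -0.91 ± 0.07 (edgeR adjusted p = 3.07e-07).

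Tnfaip3 encodes a ubiquitin-editing enzyme that shuts off signalling upstream of the kinase complex. It ranged from 2748.2 to 3350.4 CPM in vehicle cells (median 3114.9) and from 1645.2 to 3523.9 CPM in β-NMN cells (median 1792.4). In β-NMN replicate 6 the level was above every vehicle library, while the other 5 β-NMN libraries were below them all. The change was -0.55 ± 0.17 (edgeR adjusted p = 0.0130). Exact two-sided permutation tests of mean log2 CPM gave p = 0.00216 for the 7 members without overlap, the smallest that 6 against 6 allows, 0.00433 for Rel, 0.00649 for Rela and 0.0152 for Tnfaip3.

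β-NMN replicate 6 was the highest β-NMN library for 8 of the 10 members, all but Nfkbia and Bcl3. Without it all 10 members fell at an adjusted p below 0.05, with log2 fold changes from -1.20 to -0.66, beside 26.8% of all genes called lower in that fit. Within the deeper libraries (3 vehicle and 2 β-NMN) all 10 members were called lower, from -1.10 to -0.52, beside 16.6% of all genes. Within the shallower libraries (3 vehicle and 4 β-NMN) all 10 values were below 0, from -1.03 to -0.41, and 7 were called lower, beside 14.7% of all genes. The exceptions were Rel (-0.47, edgeR adjusted p = 0.0686), Rela (-0.51, edgeR adjusted p = 0.0622) and Tnfaip3 (-0.41, edgeR adjusted p = 0.241).

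The balance between members within a library, which no scaling alters, was also read in peritoneal cells. The length-corrected log2 ratio of Tnfaip3 to Rela averaged 1.70 ± 0.06 (SD, n = 6) in vehicle cells and 1.68 ± 0.20 in β-NMN cells. Nfkbia over Rela averaged 3.91 ± 0.14 and 3.70 ± 0.21, and the groups overlapped. Of the 10 ratios computed in peritoneal cells, only Nfkb1 over Rela had groups that did not overlap (1 of 10, beside 25% of all pairs of tested genes), at -0.73 ± 0.09 in vehicle cells and -0.95 ± 0.06 in β-NMN cells. These ratios are descriptions and were not tested. Their sign and size rest on the exon lengths used, whereas their differences between groups do not.

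RNA of cell type markers also differed between groups. Macrophage markers summed to 5619.7 to 8546.8 CPM in vehicle and 10569.5 to 12138.3 CPM in β-NMN cells, with all 7 genes detected and 3 called higher. Summed monocyte markers were 1575.3 to 3496.3 against 836.1 to 1090.3 CPM (3 of 4 called lower), neutrophil markers 494.6 to 1006.6 against 334.6 to 468.3 CPM (6 of 8 tested called lower, 1 higher), and fibroblast markers 111.1 to 1173.4 against 22.9 to 100.0 CPM (5 of 5 tested called lower). T and NK cell markers were at 14.3 to 71.9 against 8.26 to 13.0 CPM (8 of 8 called lower) and erythroid markers at 2.77 to 35.8 against 47.6 to 122.3 CPM (4 of 4 called higher). None of the genes of these 6 lists was at 0 in every library. Summed dendritic cell markers were at 32.7 to 52.7 against 14.0 to 18.3 CPM (3 of 5 called lower, 1 higher), lung epithelium markers at 3.58 to 6.73 against 0.943 to 2.57 CPM (2 of 3 tested called lower) and smooth muscle markers at 2.58 to 13.7 against 0.855 to 1.63 CPM (2 of 3 tested called lower). The part of these shifts in the members' change was not tested, and in RNA from mixed cells fewer cells of a type and less RNA per cell cannot be told apart.

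The rest of the pathway was read from lists of upstream genes, kinases, regulators and targets, beside a background of 23.7% of all tested genes called higher and 27.9% called lower. All 3 other IκB genes fell, with a median log2 fold change of -0.75. Nfkbid, a nuclear IκB gene, changed by -1.48 ± 0.15 (edgeR adjusted p = 1.77e-06) from 129.8 ± 18.1 CPM (SD, n = 6) to 46.6 ± 11 CPM, and Nfkbil1 by -0.75 ± 0.14.

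Of 18 tested receptor and ligand genes, 11 fell and 2 rose (median -0.84). Il1b, the interleukin-1β gene, changed by -3.17 ± 0.26 and Cd14, the co-receptor for endotoxin, by -2.92 ± 0.28 (edgeR adjusted p = 2.55e-07 and 1.28e-06). The receptor gene Tnfrsf11a rose by 0.66 ± 0.17. Of 25 adaptor and ubiquitin ligase genes, 9 fell and 2 rose (median -0.16). Here the adaptor genes Sqstm1 (-1.43 ± 0.22) and Traf1 (-1.38 ± 0.14) fell most, whereas Rnf31 (0.28 ± 0.10), a ligase of linear ubiquitin chains, and the receptor-associated kinase gene Irak1 (0.27 ± 0.09) rose.

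Of 16 kinase-module genes 8 fell and 1 rose (median -0.22). The largest falls were in Map3k14 (-1.41 ± 0.14), the kinase of the alternative pathway, and Map3k8 (-0.84 ± 0.14), and Tab2 rose by 0.32 ± 0.10. Of 26 other negative regulators 12 fell and 3 rose (median -0.31), with Irak3 (-2.49 ± 0.15), a decoy kinase that dampens Toll-like receptor signalling, and the phosphatase gene Dusp1 (-1.87 ± 0.13) lowest, and Nlrc3 (0.70 ± 0.18) and Commd1 (0.59 ± 0.12) highest. Genes that promote and genes that restrain the pathway both appeared among the falls.

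Of 43 tested textbook targets 31 fell and 2 rose (median -0.84). Csf3, the granulocyte growth factor gene, went from 195.0 ± 107.5 CPM to 3.32 ± 1.30 CPM (-5.90 ± 0.43, edgeR adjusted p = 8.94e-08) and Lcn2, an iron-trapping antibacterial protein gene, changed by -4.55 ± 0.29. The protease gene Plau (1.11 ± 0.14) and the apoptosis inhibitor gene Xiap (0.54 ± 0.09) rose. The median of the targets lay near that of the members (-0.75), and all members lay within the range of the target list.

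**Figure D2:**
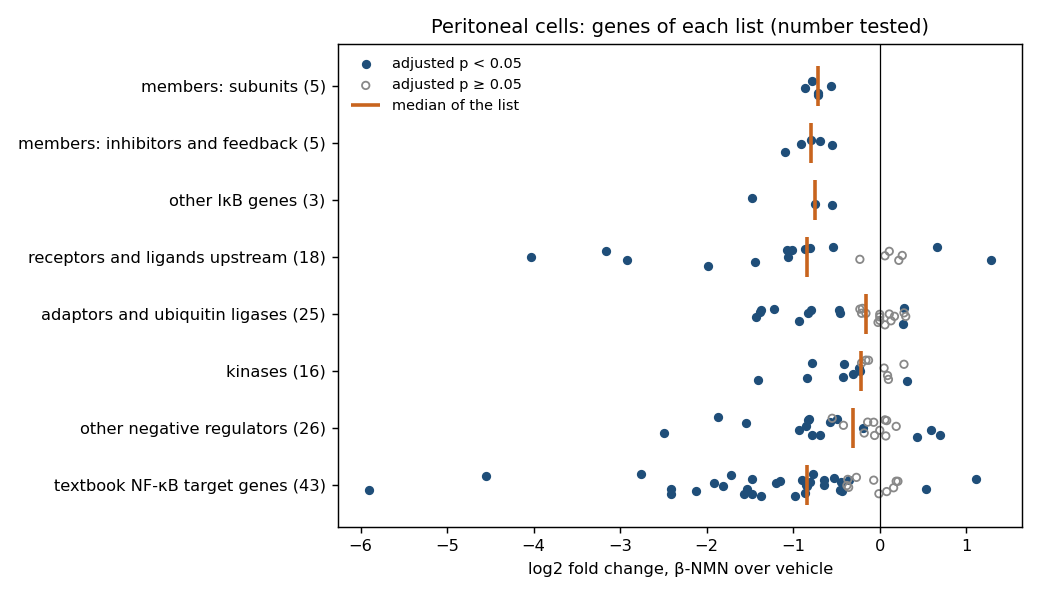
Log2 fold change of every tested gene of the members and of each pathway list in peritoneal cells; filled points have an adjusted p below 0.05 and bars are list medians, drawn beside 0. The members sit between -1.09 and -0.55, and the target list runs from -5.90 to 1.11.

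In CLP hearts, fold changes of all 10 members were below 0, from -1.42 to -0.13 with a median of -0.73 on the log2 scale, while 50.7% of the 16245 genes tested were below 0 and their median was -0.01. No member and no other gene passed an adjusted p of 0.05 by edgeR (0% of genes called). At an unadjusted p below 0.05, 6 of 10 members were lower, beside 7.63% of all genes, and 3 were when β-NMN replicate 2 or β-NMN replicate 3 was left out (4.09% and 5.02% of all genes). By DESeq2, 1 member, Tnfaip3, was called (-1.41, DESeq2 adjusted p = 0.0124) among 283 genes, 1.74% of all. In 7 members every β-NMN heart lay below every vehicle heart, as in 11.5% of all genes, and with 3 against 3 the exact permutation test cannot give a p below 0.1.

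Tnfaip3 showed the largest difference. Its level was 16.7, 31.4 and 18 CPM in the vehicle hearts (replicates 1 to 3) and 9.53, 5.14 and 10.1 CPM in the β-NMN hearts, without overlap. The fold change was -1.42 ± 0.34 (log2, SE, n = 3 per group, edgeR adjusted p = 0.435), and -1.08 without vehicle replicate 2 (edgeR adjusted p = 0.238). Bcl3 was at 18.5, 50.9 and 21.2 CPM against 14.6, 10.7 and 10.2 CPM. The groups were again separate, and the change was -1.36 ± 0.40 (edgeR adjusted p = 0.435), or -0.76 without vehicle replicate 2.

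Nfkbiz stood at 20.3, 61.6 and 19.7 CPM in vehicle hearts and 17.4, 18.6 and 12.1 CPM in β-NMN hearts. Here 1 heart, vehicle replicate 2, carried most of the change, which went from -1.08 ± 0.47 to -0.33 without it. Nfkbia was at 97.3, 194.0 and 111.4 CPM in vehicle hearts and 87.6, 72.7 and 83.5 CPM in β-NMN hearts. It differed by -0.72 ± 0.27 (edgeR adjusted p = 0.435), or -0.37 without vehicle replicate 2, and the groups were separate in both cases. Nfkbie, the lowest of the 10 per exon length, was at 4.36, 6.94 and 4.10 against 3.05, 2.59 and 2.7 CPM, a change of -0.89 ± 0.26, or -0.62 without vehicle replicate 2.

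In heart the medians were -0.37 for the 5 subunits and -1.08 for the 5 inhibitor and feedback genes (-0.15 and -0.62 without vehicle replicate 2), a difference that was not tested. The median of -1.08 is the value of Nfkbiz, which rested mostly on vehicle replicate 2. The IκB genes Nfkbia (-0.72) and Nfkbie (-0.89) lay nearer to the subunits Relb (-0.58) and Rel (-0.74). Nfkb1 was at 53.1, 68.8 and 58.9 CPM in vehicle hearts and 55.2, 56.3 and 53.7 CPM in β-NMN hearts. The groups overlapped (-0.13 ± 0.13, 95% interval -0.43 to 0.17), and without vehicle replicate 2 the value was -0.03. Rela (-0.34 ± 0.19) and Relb (-0.58 ± 0.32) overlapped too, whereas Nfkb2 (44.8 to 58.6 against 37.6 to 41.6 CPM, -0.37 ± 0.14) and Rel (13.4 to 27.2 against 9.94 to 11.9 CPM, -0.74 ± 0.28) did not. Without vehicle replicate 2 these 4 values were -0.11, -0.15, -0.25 and -0.35.

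Vehicle replicate 2 was the highest heart for all 10 members. Without it the 10 fold changes ran from -1.08 to -0.03 (median -0.34), all still below 0, 6 of them at an unadjusted p below 0.05 and lower beside 5.94% of all genes, and 0 were called. In that heart the summed fibroblast markers were 2180.5 CPM (887.2 to 1316.2 in the other 5 hearts), mesothelial markers 99.1 CPM (0.868 to 8.88), B cell markers 59.4 CPM (1.08 to 4.75) and cardiomyocyte markers 30476.3 CPM (49238.1 to 56904.9), and none of the genes of these 4 lists was at 0 in every heart. Its monocyte markers summed to 203.9 CPM (48.0 to 91.3 in the others). Between the groups, neutrophil markers were at 22.7 to 38.6 CPM in vehicle and 14.7 to 17.2 CPM in β-NMN hearts, cardiomyocyte markers at 30476.3 to 49686.7 and 52020.7 to 56904.9 CPM, endothelial markers at 837.8 to 863.7 and 891.0 to 1043.1 CPM, and markers of resident peritoneal macrophages at 126.3 to 207.5 and 106.8 to 119.7 CPM. These 4 of 16 lists did not overlap. No gene of them was called. In peritoneal cells the sums of the last list were 36.0 to 56.0 CPM in vehicle and 39.6 to 90.8 CPM in β-NMN mice. As these sums were higher in heart, the list cannot be read as that cell type there. The part of cell types in the members' levels and changes was not tested.

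In heart 6 of the same 10 length-corrected ratios had groups that did not overlap, beside 22.5% of all pairs of tested genes, and without vehicle replicate 2 again 6, beside 28.6%. The 10 ratios share genes and are not independent. The log2 ratio of Tnfaip3 to Rela averaged -2.93 ± 0.19 (SD, n = 3) in vehicle (-3.01 without vehicle replicate 2) and -4.04 ± 0.54 in β-NMN hearts. Bcl3 over Nfkb1 averaged 1.14 ± 0.61 in vehicle (0.79 without vehicle replicate 2) and 0.05 ± 0.28 in β-NMN hearts. Nfkbiz over Nfkb1 was lower in β-NMN hearts by a difference of -0.76, which came to -0.32 without that mouse. The others were Nfkbie over Rela and Nfkb2 over Nfkb1, lower in β-NMN hearts, and Nfkbia over Tnfaip3, higher there. In lung 0 of the 10 were separate with or without vehicle replicate 2, beside 8.85% and 21.2% of all pairs. These ratios were not tested.

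**Figure D3:**
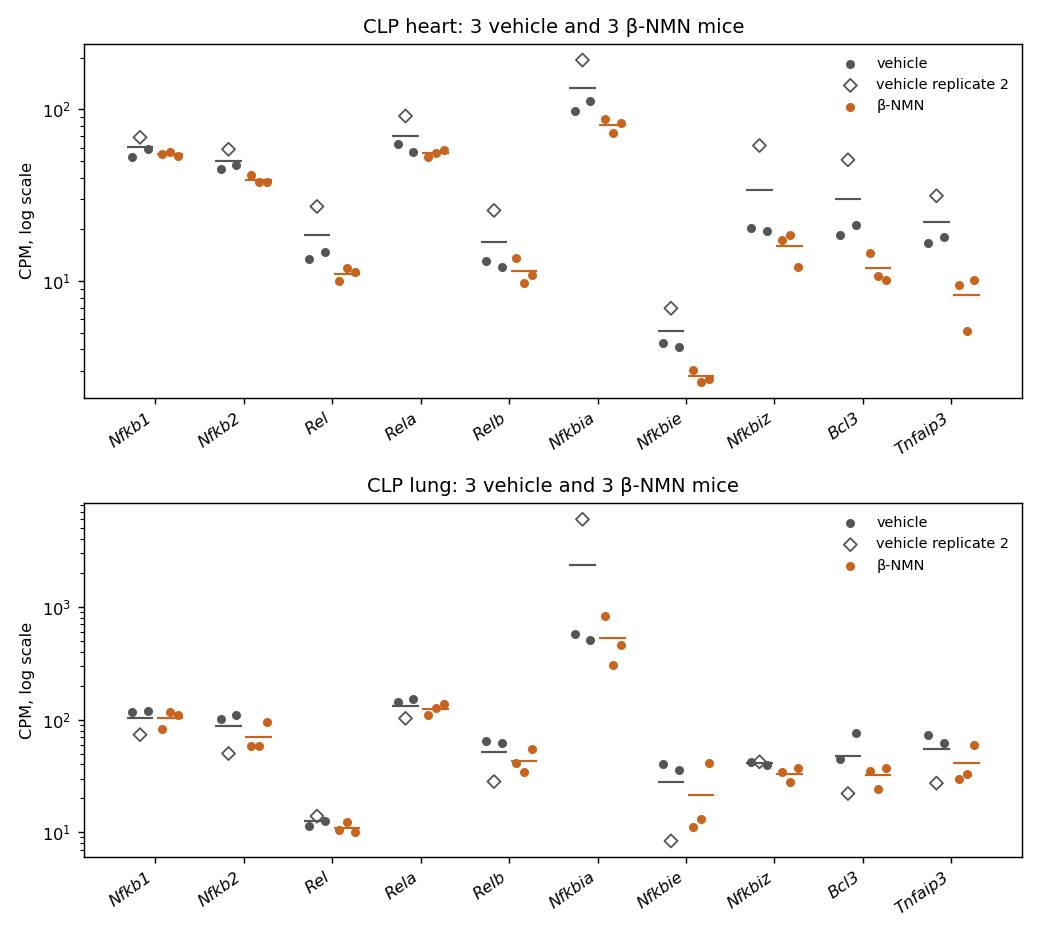
CPM of each member (log axis) in each CLP heart (top) and lung (bottom), 3 vehicle (grey) and 3 β-NMN (orange) mice; bars are group means and open diamonds mark vehicle replicate 2. That mouse is highest for every member in heart, and in lung it is lowest for 7 members but far highest for Nfkbia (5992.8 CPM).

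In CLP lungs, no member or other gene passed an adjusted p of 0.05 (0% of 17008 genes; 301 genes had an unadjusted p below 0.05 by edgeR, and DESeq2 called 9 genes and none of the 9 members it tested, since it gave Nfkbia no p). Fold changes of 9 members were below 0, beside 49.9% of all genes, but at an unadjusted p below 0.05 there were 0 members, beside 1.28% of all genes that were lower. Only Nfkbiz had separate groups, as did 3.75% of genes in that direction: it was at 41.7, 42.2 and 39.8 CPM in vehicle lungs and 34.0, 27.7 and 37.4 CPM in β-NMN lungs (-0.32 ± 0.20, 95% interval -0.80 to 0.17, and -0.30 without vehicle replicate 2).

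Nfkbia had the widest interval of the 10 members in lung. The vehicle lungs held 572.6, 5992.8 and 513.1 CPM and the β-NMN lungs 839.0, 305.1 and 454.8 CPM. The fitted change of -2.15 ± 1.02 (edgeR adjusted p = 0.969) rested on vehicle replicate 2 and was -0.03 without it. In that lung Nfkbia exceeded the mean of the other vehicle lungs by 3.47 on the log2 scale, and 7 other members were below it, by 0.52 (Rela) to 2.15 (Nfkbie).

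Nfkbia has the shortest exons of the 10, 1610 bases against 2475 to 12061. Over all tested genes that lung differed from the other vehicle lungs by a median of 0.79 for 1072 genes with at most 1000 exon bases, 0.04 for those from 1000 to 2000, -0.23 for those from 2000 to 4000 and -0.19 for longer ones. In the heart of the same mouse the medians ran from -0.14 to 0.03. In that lung, summed macrophage markers were 1342.0 CPM (3981.7 to 5477.1 in the other 5), endothelial markers 730.9 CPM (1444.4 to 2233.9) and erythroid markers 7198.6 CPM (1611.6 to 3355.3), and no gene of these 3 lists was at 0 in every lung. The part of these properties in the Nfkbia level was not tested. Macrophage sums were lower in all vehicle lungs (1342.0 to 4293.2 CPM) than in the β-NMN lungs (5001.6 to 5477.1 CPM), as were eosinophil (18.6 to 37.4 against 37.5 to 45.6 CPM) and dendritic cell sums (36.1 to 43.9 against 45.1 to 50.6 CPM), whereas cardiomyocyte sums were higher (252.2 to 415.3 against 74.7 to 245.3 CPM).

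Nfkb1 did not differ detectably in lung (116.4, 73.5 and 118.4 against 82.5, 116.8 and 109.4 CPM, 0.00 ± 0.28, 95% interval -0.66 to 0.66; -0.19 without vehicle replicate 2). Tnfaip3 was at 73.2, 27.3 and 62.5 CPM in vehicle lungs and 30.0, 33.1 and 59.7 CPM in β-NMN lungs, and Bcl3 at 45.1, 22.1 and 76.2 against 35.1, 24.3 and 37.2 CPM. For both the vehicle lungs other than replicate 2 were above all β-NMN lungs. Without that mouse all 10 values were below 0, from -0.91 (Bcl3) to -0.03 (Nfkbia), with 4 at an unadjusted p below 0.05 (Bcl3, Tnfaip3 at -0.72, Nfkb2 at -0.57 and Relb at -0.56) beside 2.64% of all genes that were lower, and still 0 called (smallest edgeR adjusted p of a member 0.991). Without vehicle replicate 3, Bcl3 was at -0.06, Nfkb2 at -0.08 and Relb at -0.10, and without vehicle replicate 1, Tnfaip3 was at -0.13 and Relb at -0.07.

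The pathway lists in the organs held no called gene by edgeR. In heart DESeq2 called 13 of 39 targets, 3 of 18 receptor and ligand genes and 1 of 26 other negative regulators, beside 1.74% of all genes. In heart the median over 39 tested targets was -0.83 and over 18 receptor and ligand genes -0.58, and the other lists lay between -0.22 and -0.13. Without vehicle replicate 2 the first pair of medians was -0.56 (40 genes tested) and -0.25, and the other lists lay between -0.11 and -0.02. The smallest p of each list fell on Il6 (4.24 ± 3.30 CPM, SD, n = 3, against 0.0639 ± 0.0276 CPM), Tlr2 (-1.01 ± 0.18), Tirap (-0.88 ± 0.25), Map3k8 (-1.21 ± 0.36), Socs1 (-1.74 ± 0.45) and Nfkbid (-0.52 ± 0.36), each with an edgeR adjusted p of at least 0.435. Without vehicle replicate 2 the values of Tirap, Map3k8 and Nfkbid came to -0.57, -0.69 and -0.20. In lung the list medians ran from -0.49 (targets) to -0.07, or from -0.24 (targets) to -0.02 without vehicle replicate 2, and the smallest p fell on Tnfaip2 (-0.82 ± 0.24), Il1b (-0.94 ± 0.30), Socs1 (-1.17 ± 0.38), Birc3 (-0.51 ± 0.26), Chuk (-0.82 ± 0.56) and Nfkbib (-0.34 ± 0.23), all at an edgeR adjusted p of 0.969. The value of Chuk rested on vehicle replicate 2: the vehicle lungs held 36.0, 136.7 and 32.1 CPM and the β-NMN lungs 38.5, 39.5 and 37.3 CPM, and without that lung the value turned to 0.17. Birc3 came to -0.33 without the same lung, and Nfkbib to -0.16 without β-NMN replicate 2. Socs1, an inhibitor of cytokine receptor signalling, was the gene with the smallest p among the negative regulators in both organs.

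**Figure D4:**
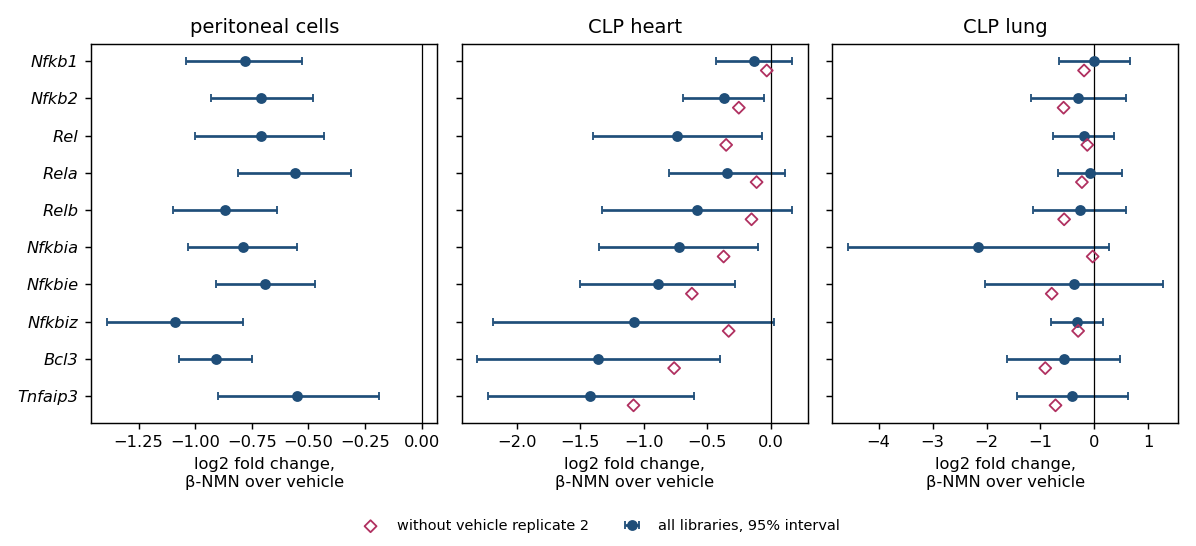
Log2 fold change (β-NMN over vehicle) of each member with its 95% interval in the 3 tissues, each panel on its own scale; open diamonds leave out vehicle replicate 2 in heart and lung. The intervals lie below 0 for all 10 members in peritoneal cells, for 6 in heart and for none in lung.

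Whether the organs differed in their response was tested over the 12 CLP libraries as the β-NMN effect in lung minus that in heart. No member was called (0% of 18318 genes by edgeR), and 0 members had an unadjusted p below 0.05, as did 797 genes in all; DESeq2 called 14 genes and no member. The largest difference was for Nfkbia, at -1.35 ± 1.07 (log2, 95% interval -3.68 to 0.98), which was -0.59 with the mouse as a block and 0.31 without vehicle replicate 2. The largest positive difference was for Tnfaip3, at 1.00 ± 0.61 (log2, 95% interval -0.34 to 2.34), which was 0.33 without vehicle replicate 2. For Nfkb1 it was 0.13 ± 0.34 (95% interval -0.60 to 0.87), or -0.18 without that mouse. Intervals of this width do not show that the organs responded alike.

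Levels were also compared between the organs themselves. Averaged over treatments, 5 of 10 members were called, a share no higher than the 64.8% of all genes. Of these, 4 members were higher in lung by edgeR, beside 35.9% of all genes, and 1 was lower, beside 28.9% of all genes, with a median shift of 0.14 over all genes. Nfkbia was 2.71 ± 0.57 (log2, SE) higher in lung (edgeR adjusted p = 0.00125; 1.78 without vehicle replicate 2), Nfkbie 2.06 ± 0.43, Tnfaip3 1.15 ± 0.31 and Relb 1.11 ± 0.27. Without that mouse 7 members were called, beside 75.1% of all genes, since Rela (0.47) and Bcl3 (0.76) were added, and Nfkbie (2.29), Tnfaip3 (1.37), Relb (1.36) and Rel (-0.89) kept their calls. Rel alone was called lower in lung (-0.96 ± 0.18, edgeR adjusted p = 0.000685), and this call was lost when libraries were scaled by their totals (-0.31, edgeR adjusted p = 0.253). With that scaling the median of all genes moved to 0.82 and 78.5% of the calls were higher in lung, as compared with 55.4% with TMM factors. Nfkb1 (0.17 ± 0.17, 95% interval -0.20 to 0.54) and Nfkbiz (-0.01 ± 0.27, 95% interval -0.60 to 0.58) were not called, nor were they without that mouse (0.22 and 0.26). With library totals Nfkb1 was called (0.85, edgeR adjusted p = 0.0042) and Nfkbiz was not (0.62, edgeR adjusted p = 0.107). With limma-voom both were called, at 0.35 and 0.38 (limma-voom adjusted p = 0.00139 and 0.024).

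Levels per kilobase of exon (RPKM) used the merged length of all annotated exons of a gene, of which a single transcript may hold fewer. The order of members rests on these lengths. In vehicle peritoneal cells Nfkb1 (12061 bases) averaged 958.8 CPM and Rela (3072 bases) 405.4 CPM, although Nfkb1 stood below Rela in RPKM. By this measure Nfkbia was the most abundant member in every group of samples. In vehicle peritoneal cells it averaged 1990 ± 216 RPKM (SD, n = 6), followed by Tnfaip3 (428 ± 27.5), Nfkb2 (314 ± 27.0), Nfkbiz (234 ± 21.5) and Rela (132 ± 6.59), and the ranges of these 5 did not overlap. Bcl3 (96.8 ± 5.50), Nfkbie (95.1 ± 9.28) and Nfkb1 (79.5 ± 6.55) overlapped in sequence, as did Relb (54.9 ± 6.98) and Rel (48.6 ± 7.35) at the bottom. After β-NMN the first 5 kept this order in 6 of 6 mice although their ranges overlapped from Tnfaip3 downward.

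The organs were ordered differently. In vehicle hearts Nfkbia (83.4 ± 32.4 RPKM, n = 3) and Rela (22.9 ± 6.12) led, and Tnfaip3 (3.05 ± 1.13), Rel (2.47 ± 1.02) and Nfkbie (1.69 ± 0.515) were lowest, with the ranges of all neighbours after the first overlapping. Without vehicle replicate 2 the means of these 5 were 64.8, 19.4, 2.4, 1.88 and 1.39 RPKM, in the same order, and no neighbours among the 10 overlapped over the other 2 hearts. In vehicle lungs Nfkbia (319 to 3720 RPKM), Rela (43.1 ± 8.59) and Rel, which was lowest at 1.69 ± 0.168, were each separate from their neighbours, and the 7 between them, from Bcl3 (19.3 ± 11) to Tnfaip3 (7.52 ± 3.32), overlapped in sequence. Without vehicle replicate 2 Nfkbia averaged 337 RPKM, Rela 48, Bcl3 24.5, Tnfaip3 9.39 and Rel 1.6 RPKM, and only Bcl3 with Nfkb2 and Nfkb1 with Tnfaip3 overlapped over the other 2 lungs. Peritoneal cells and organs are held in separate count tables and were scaled separately, so their levels are set side by side and not tested: Tnfaip3 stood second in peritoneal cells and eighth or ninth in the organs.

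**Figure D5:**
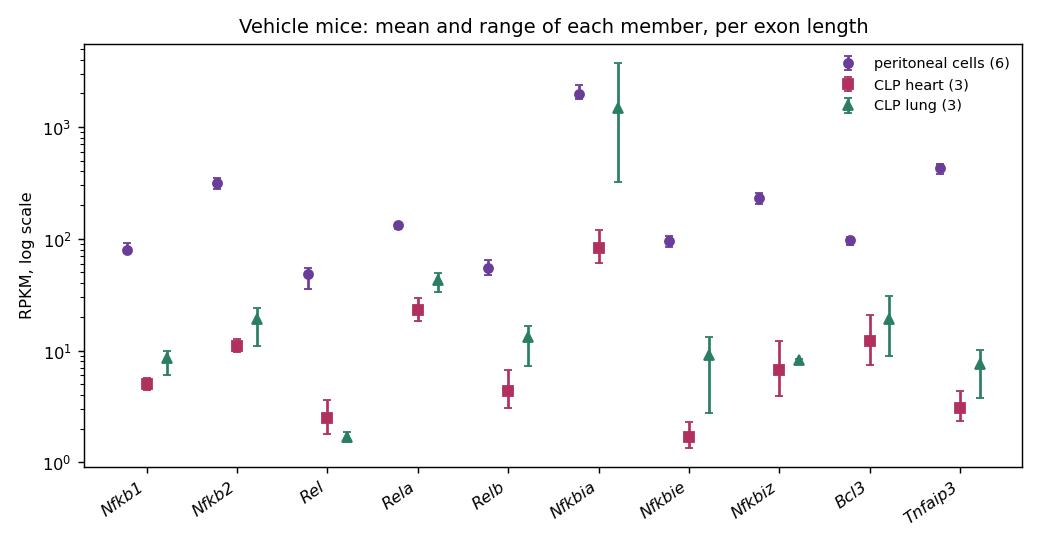
Mean level of each member per kilobase of exon (RPKM, log axis) in vehicle mice, with the range over 6 peritoneal, 3 heart and 3 lung libraries. Nfkbia is highest in each tissue (1990, 83.4 and 1470 RPKM on average, the last with 1 lung at 3720), and Rel or Nfkbie is lowest.

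Genes whose mean log2 CPM over the 6 groups ran most like a member's, each centred on its own mean, were sought among 8812 genes. For Nfkb1 they were Zc3h12c, Zeb2 and Dusp4 (root mean square differences of 0.10, 0.13 and 0.16 on the log2 scale). For Tnfaip3 they were Slc15a3, Plek and Lilrb4a (0.26, 0.27 and 0.29), and for Nfkbia Sdc4, Baz1a and Asns (0.33, 0.38 and 0.39). With 6 points, which are mostly set by the 3 tissues, this likeness is a description only, and for Nfkbia it includes the 1 high lung.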

How the data were processed

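The authors deposited 2 tables of read counts per gene symbol, not normalized, 1 for peritoneal cells and 1 for CLP organs. Per the methods, poly(A) RNA was sequenced, aligned to mm10 with STAR and counted with featureCounts. The submitters' processing notes give STAR 2.7.3a, where the methods name another STAR version, and featureCounts 2.0.0. The annotation and strand setting are not given in the sources used here. Columns were assigned by sample title.

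Counts of each tissue were fitted separately in edgeR 4.0.16 (R 4.3.3) with filterByExpr, TMM factors, estimateDisp and the quasi-likelihood test in its older form. P-values were adjusted by Benjamini-Hochberg over all tested genes and called below 0.05. Organ contrasts used the 12 CLP libraries. A prior count of 2 was added for log2 CPM. Exon lengths, with all annotated exons of a gene merged, and positions came from GENCODE M21 (GRCm38), in which 54106 symbols matched, and promoters from RefSeq. Heart and lung are paired by the mouse named in the labels. No 2 libraries of a group agreed within sampling noise (chi-square per gene at least 23.7). Within a tissue, p-values measure the spread between mice. The main fit of the organ contrasts held no term for the mouse, so heart and lung of a mouse counted there as independent. The mouse as a block was an alternative.

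The members and all gene lists were chosen with earlier results of these data known. All 10 members were named. Of each list, the 2 highest and 2 lowest called genes by fold change whose mean log2 CPM reached 1 were named in peritoneal cells, and the gene with the smallest p in the organs. Genes of like pattern were the 3 closest to Nfkb1, Nfkbia and Tnfaip3. Alternatives were DESeq2 1.42.0 and its size factors, library totals, no filter, the newer edgeR fit, limma-voom (limma 3.58.1), blocks, both organs together, leaving out libraries, a prior count of 0.5 and, chosen after seeing the data, depth classes split at 70 M counts and ratios between members, also without vehicle replicate 2. The share of separate ratios over all gene pairs used log2 CPM.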

Additional observations from a re-analysis of the deposited data

Results flagged for a closer look

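Within the peritoneal groups of 6 mice, 4 member values lay far from the rest of their group by Dixon's criterion (gap over range above 0.625), in 20 groups examined, and chance alone gives about 1 in 20. In β-NMN replicate 6, Tnfaip3 was at 3523.9 CPM (the other 5 at 1645.2 to 2234.4), Nfkb1 at 782.2 CPM (478.8 to 549.3) and Rela at 390.2 CPM (219.2 to 278.6). These 3 values come from 1 library and are not independent of each other. In vehicle replicate 4, Nfkb1 was at 1113.6 CPM, while the other 5 lay between 902.5 and 965.4 CPM. Groups of 3 organs were not examined in this way.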

How the results depend on the processing

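In peritoneal cells 10 members were called and below 0 under every alternative that kept all libraries and without any 1 library (10 to 10), 10 were called in the deeper libraries alone and 7 in the shallower libraries alone. In heart 0 members were called by edgeR and 1 by DESeq2 (0 to 0 without each library), and all 10 stayed below 0 in every heart fit. In lung 0 were called in every fit (DESeq2 gave Nfkbia no p), and Rela was reversed with library totals (0.03) and ranged from -0.23 to 0.05 without each library. For the difference in response 0 were called in every fit. With limma-voom its sign turned for Nfkb1 (-0.11), Nfkb2 (-0.12), Relb (-0.20) and Nfkbia (0.02), and for Nfkb2 with DESeq2 or its size factors (-0.02 each). Without each mouse the difference ranged from -0.18 to 0.33 for Nfkb1, -0.35 to 0.34 for Nfkb2, -0.15 to 0.54 for Rela, -0.43 to 0.67 for Relb, -1.74 to 0.31 for Nfkbia, -0.40 to 0.96 for Nfkbie and -0.18 to 1.49 for Bcl3. For the level in lung against heart, 5 members were called by edgeR (64.8% of all genes), 8 with library totals (70.2%), 10 with limma-voom (80.1%) and 5 to 7 without each mouse (7 without vehicle replicate 2, 75.1%). Nfkbiz there turned to 0.62 with library totals, 0.38 with limma-voom and 0.11 with the mouse as a replicate block, and ranged from -0.17 to 0.26 without each mouse, and Nfkb2 from -0.02 to 0.26. The causes of these changes were not tested. Of 144 counts of calls in the pathway lists, 5 moved by over 1.5 times. With no filter the kinase calls in peritoneal cells went from 9 to 5 and the target calls in heart from 0 to 1, and with DESeq2 the heart calls went from 0 to 13 for targets, 3 for receptors and ligands and 1 for negative regulators. Without vehicle replicate 2 the difference in log2 ratio turned for Relb over Nfkb2 in heart (0.09) and, in lung, for Nfkbia over Rela (0.09), Rel over Rela (0.10) and Nfkbia over Tnfaip3 (0.64).

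Correlations of the deviations of same-numbered mice were -0.169 to 0.132 in peritoneal cells, 0.073 to 0.241 in heart and -0.518 to 0.304 in lung. They did not all exceed 0.1 in any tissue, so the numbers were not taken as pairs, although in heart all 3 were above 0 and each was higher than with another number (at most 0.056). With the replicate block 10, 0 and 0 members were called in peritoneal cells, heart and lung. With the mouse as a block 5 were called for the level and 0 for the difference in response. All calls in peritoneal cells went from 7733 to 7010 genes with the block and those of the level from 11873 to 11408. In heart 5 members, in place of 6, had an unadjusted p below 0.05 with the block. Nfkb2 (0.0614) and Nfkbia (0.0564) passed above it and Nfkbiz (0.0297) below it by the edgeR quasi-likelihood test. A prior count of 0.5 turned no direction and moved no exact p across 0.05. The common biological coefficient of variation (edgeR) came to 0.233 in peritoneal cells, 0.293 in heart and 0.437 in lung, and the lung of vehicle replicate 2 held the fewest counts, 8.9 M.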
